A study of Homo sapiens with 12 samples.

Results

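PERK knockout and wild-type HEK293 cells, a human embryonic kidney line, were compared after both had been transfected with a plasmid for STING. The members of this comparison were all symbols that stood above the floor of 1 in at least 1 of the 4 STING libraries. That rule kept 11716 of the 12421 symbols of the deposited table, and all 11716 entered the test. Values are levels of polyadenylated RNA in the ribosomal fraction of a sucrose gradient, in FPKM (fragments scaled to transcript length and library size). Total RNA was not analysed here, so the amount of an RNA and its loading with ribosomes cannot be told apart.

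Each of the 4 groups used here holds 2 libraries. Wild-type cells carried empty vector or STING, and cells labelled PERKKO (PERK knockout) carried empty vector or STING. All groups received 5 ug of plasmid for 24 h, and cycloheximide before lysis. The labels give neither the way the knockout was made nor whether it is 1 clone, and they do not say that the libraries of a group came from separate cultures. The p-values therefore measure the spread between libraries, which may be technical. The series has 12 libraries, and the 4 of its first experiment, which has no knockout, were not used here.

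PERK, encoded by EIF2AK3, is a kinase of the endoplasmic reticulum (ER) membrane that phosphorylates the initiation factor eIF2alpha when unfolded proteins accumulate. Phosphorylated eIF2alpha lowers general initiation and favours mRNAs with upstream open reading frames, among them those of ATF4 and DDIT3 (CHOP), in what is called the integrated stress response. STING, listed here under its older symbol TMEM173, is an ER adaptor that is switched on by cGAMP, the product of the DNA sensor cGAS, and drives interferon genes. The series concerns a proposed route from cGAS and STING to PERK.

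The TMEM173 level differed between the groups. It stood at 41812 and 40660 FPKM in the wild-type STING libraries and at 10512 and 7338 in the knockout STING libraries. Wild-type cells thus held 4.62 times as much, and from 3.87 to 5.70 times for single pairs of libraries. Without knockout STING library 1 the ratio was 5.62, and without knockout STING library 2 it was 3.92. In the vector libraries TMEM173 stood at 23.1 and 36.7 in wild type and at 23.5 and 43.8 in knockout, so those groups overlapped. Genotype and STING level cannot be told apart with STING alone. The vector libraries, which do not enter the group means of the STING comparison, give the genotype difference without the plasmid's TMEM173. They do enter the spread by which that comparison is tested, since all 8 libraries share 1 estimate of it.

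Only knockout STING library 2, at 1.15, held EIF2AK3 above the floor of 1, and the other 7 libraries listed it at 1, so its level cannot check the knockout label. Between 13.1% and 18.1% of symbols stood at the floor in a library, and differences that reach it are understated. The table gives no counts, so the depth is unknown. Relative depth read from low values ran from 0.821 to 1.29, with knockout STING library 2 the lowest. All 9 of the HEK293 marker genes were listed, but PAX2 and LHX1 stayed between 1 and 1.47 in every library. The summed level of the 9 markers was 179.6 to 246.2 in wild-type and 329.3 to 538.9 in knockout libraries. Of 6 endothelial markers none was listed, and 5 of 8 keratinocyte, 6 of 8 haematopoietic, 6 of 8 hepatocyte (ALB among them) and 7 of 8 fibroblast markers were not listed either. The 2 listed hepatocyte markers summed to 3.00 to 3.50 in wild-type and 4.48 to 9.79 in knockout libraries, and their part in any result was not tested. The 2 listed haematopoietic markers summed to 5.88 to 9.96 and to 3.96 to 14.3.

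With STING, 215 of 12254 tested genes differed between knockout and wild type (1.75%; limma on log2(value + 1), adjusted p under 0.05). Of these, 148 were higher in knockout (1.21%) and 67 were lower (0.547%). The 4 STING libraries did not overlap between genotypes for any of the 215. The genes were called on these same libraries, so this adds no support. Of all tested genes 45.4% did not overlap, in either direction. At an unadjusted p under 0.05 the comparison gave 2132 genes (17.4%). On simulated data with the spread of these libraries, 17 of 100 genes changed by 1 log2 unit and 66 of 100 changed by 2 passed this comparison, which was simulated alone. The changed genes were drawn only from those averaging over 5 FPKM on the log scale, so these shares do not cover lower genes. Of the 12254 tested genes 5323 stayed under 5 FPKM in all 4 STING libraries.

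**Figure D1:**
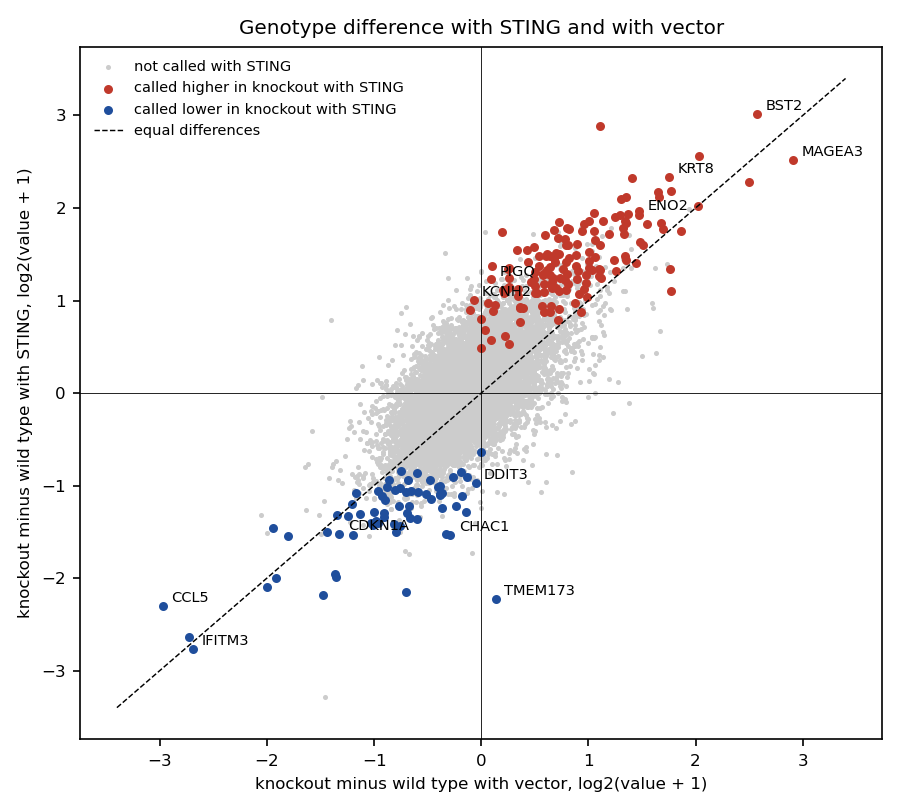
Genotype difference (knockout minus wild type, log2(value + 1)) with STING on the vertical axis and with vector on the horizontal axis, 1 point per tested gene; red and blue points are the 148 and 67 genes called with STING, and the dashed line marks equal differences. Most called genes lie on the same side of 0 on both axes, and TMEM173 stands apart at -2.23 with STING and 0.14 with vector.

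Most of these differences were also present without STING. The sign was the same with vector for 209 of the 215 genes (97.2%), against 62.7% of all tested genes. For 193 of them (89.8%) the vector libraries of the genotypes did not overlap and lay apart in the same direction, against 29.7% of all tested genes. Of all tested genes 38.3% had vector libraries apart in either direction. The median log2 difference of the 148 higher genes was 1.36 with STING and 0.79 with vector, and that of the 67 lower genes was -1.28 and -0.77. Since the genes were chosen on the STING libraries, the smaller vector medians are a description only. The spread used in that choice was pooled with the vector libraries, which favours genes whose vector replicates lie close. The shares of 97.2% and 89.8% are therefore not an independent check. The 6 exceptions were named after their values were seen. TMEM173, KCNH2 and REM2 had the opposite sign with vector, at 0.14, -0.07 and -0.11 (limma unadjusted p = 0.70, 0.56 and 0.41). ARC, ATOH1 and MIXL1 had a vector difference of 0 and so no sign there. With vector alone, 6 genes passed (0.049%; 1516 at an unadjusted p under 0.05, 12.4%). These were EPHA8, KRT8, TMSB15A and GAP43, higher in knockout (0.0326%), and CCL5 and BMP2, lower (0.0163%). The share of higher genes among them was 66.7%, against 25% of the 4 that passed with equal sums. Median-of-ratios scaling gave 53 genes, 77.4% of them higher. Over 2-fold in each of the 4 pairs of libraries, 79 genes differed in the same direction with STING and with vector (57 higher, 22 lower), and 0 did so in opposite directions. With STING alone 321 genes passed that fold rule (2.62%), and with vector alone 145 (1.18%).

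The number of calls rested on the libraries in the fit. When 1 library was left out, 128 genes passed without knockout vector library 1. A single gene passed without wild-type STING library 2 or without knockout STING library 2. None passed without any of the other 5 libraries, although 1121 to 2294 genes had an unadjusted p under 0.05 over all 8 such fits. All 215 genes kept their direction and an unadjusted p under 0.05 in each of those fits. With equal sums of all genes other than TMEM173, 37 of the 215 passed, and in a fit of the 4 STING libraries alone 0 genes did, with 2052 at an unadjusted p under 0.05. The share of higher genes among the calls was 68.8%, against 56.6% after quantile normalization, 55.0% with equal sums, and 40.3% after correction for transcript GC content.

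Genes of the integrated stress response passed the test in both directions. Of 53 ATF4 and stress-response targets, 2 rose (DDIT4 and SLC7A3), 2 fell (DDIT3 and CHAC1) and 49 did not pass. Over all tested genes 1.21% rose and 0.547% fell. With equal sums none of the 53 rose and 1 fell. At a limma unadjusted p under 0.05, 8 of the 53 were higher and 11 lower, against 1262 and 870 of 12254. The list's median log2 difference was 0.02, as was that of all genes, and with equal sums both were -0.04. It was -0.04 against 0 after quantile normalization and -0.23 against -0.06 after GC correction. Among the 44 members averaging 5 FPKM or more it was -0.22, against -0.0011 for all such genes. DDIT3, the pro-apoptotic transcription factor CHOP, stood at 81.7 and 80.4 FPKM in wild type with STING and at 43.8 and 37.9 in knockout with STING. With vector the 4 libraries overlapped, at 57.8 and 58.8 in wild type and 51.9 and 60.7 in knockout. Its log2 difference was -0.97 ± 0.17 with STING (SE, n = 2 per group; limma adjusted p = 0.0439) and -0.05 with vector.

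CHAC1, which encodes a glutathione-degrading enzyme induced through ATF4, stood at 21.5 and 23.7 in wild type with STING and at 8.55 and 5.92 in knockout. The vector libraries again overlapped, with 26 and 16.3 in wild type and 14.5 and 19.2 in knockout. The log2 difference of CHAC1 was -1.54 ± 0.29 with STING (limma adjusted p = 0.0477) and -0.29 with vector. The RefSeq promoter of CHAC1 (GRCh38.p14, from 250 bases before to 50 after the start) holds 1 match to the composite element TGATGNAA that ATF4 is known to bind with C/EBP factors. Both strands were searched, and 3.67% of 27305 promoters hold a match, as do 11 of the 40 promoters found for the target list. The stretch of CHAC1, at chr15:40953237-40953294 on the plus strand, is shown because CHAC1 is the one called target with a match. The promoter windows of DDIT3 and DDIT4 held none, and SLC7A3 is named only. Capitals mark the match, here in the reverse orientation.
CHAC1: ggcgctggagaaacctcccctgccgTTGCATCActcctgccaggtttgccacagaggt

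ATF4 itself did not pass the test. It stood at 2829 and 2502 in wild type with STING against 1753 and 1224 in knockout with STING, a log2 difference of -0.86 ± 0.22 (adjusted p = 0.106), and at -0.29 with vector. The list of 27 mRNAs with upstream open reading frames, which includes ATF4 and DDIT3, had 1 lower call (DDIT3) and none higher. Over all tested genes 0.547% were called lower and 1.21% higher. At a limma unadjusted p under 0.05, 10 of the 27 were lower and 0 higher, against 870 and 1262 of 12254. The list's median was -0.38 with STING and -0.23 with vector, against 0.02 and -0.09 for all genes. That median stayed negative under each scaling alternative, from -0.57 after GC correction to -0.37 after quantile normalization. AMD1, an enzyme of polyamine synthesis whose mRNA carries such a reading frame, stood at 27.6 and 29.5 against 13.1 and 13.9 (adjusted p = 0.0791). PPP1R15A, which encodes the phosphatase subunit GADD34 that reverses eIF2alpha phosphorylation, stood at 72.5 and 63.2 against 48.1 and 47.5 (adjusted p = 0.218). TRIB3, another ATF4 target, stood at 11.1 and 12.7 against 9.68 and 15.3, so its libraries overlapped. PPP1R15A and TRIB3 were added after their values were seen.

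**Figure D2:**
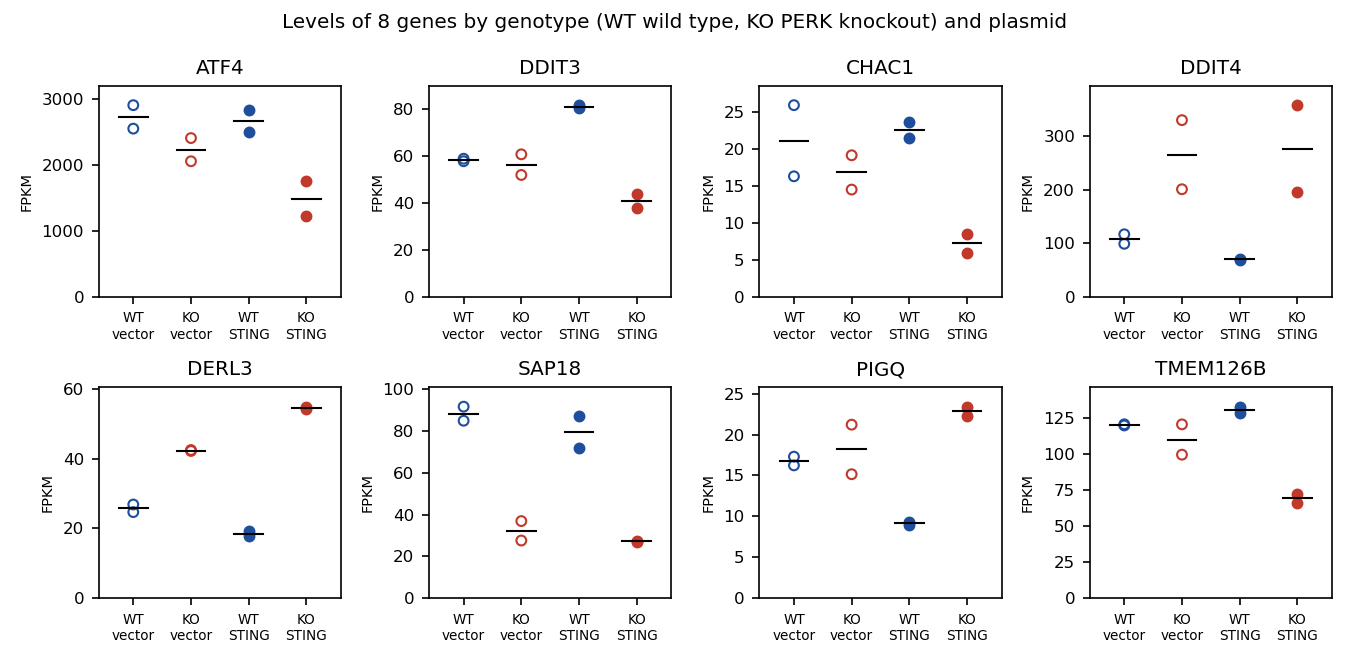
FPKM of 8 genes in each library, on linear axes that start at 0; points are the 2 libraries of a group (open with vector, filled with STING, blue wild type, red knockout) and bars are their means. DDIT3, CHAC1, PIGQ and TMEM126B separate by genotype with STING and overlap with vector, whereas ATF4, SAP18, DDIT4 and DERL3 separate in both.

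DDIT4, an inhibitor of mTORC1 signalling also known as REDD1, was higher in knockout with either plasmid. It stood at 69.3 and 71.3 against 196 and 358 with STING, and at 99.1 and 117 against 201 and 330 with vector. Its log2 differences were 1.90 ± 0.33 (adjusted p = 0.0439) and 1.25. SLC7A3, a transporter of cationic amino acids, was listed at 1 in both wild-type STING libraries and stood at 3.84 and 5.55 in the knockout STING libraries.

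Of 50 genes for ER chaperones and the unfolded protein response, 1 rose, against 1.21% of all tested genes, and 49 did not pass. The riser was DERL3, a component of ER-associated degradation, with 17.7 and 19.2 in wild type against 54.2 and 54.9 in knockout. Its log2 difference was 1.52 ± 0.17 (adjusted p = 0.0238), and 0.70 with vector. HSPA5, the main ER chaperone BiP, stood at 13.5 and 10.8 against 7.97 and 14.7, and these libraries overlapped. The list's median was -0.01 with STING and -0.31 with vector, against 0.02 and -0.09 for all genes.

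Several interferon-stimulated genes were much lower in knockout. Of 42 tested members 6 fell, 1 rose and 35 did not pass, and 18 of the 42 stayed under 5 FPKM in all 4 STING libraries. Over all tested genes 0.547% fell and 1.21% rose. The median of the list was -0.05, and with 18 low members it cannot show how widely members fell. At a limma unadjusted p under 0.05, 10 of the 42 were lower and 5 higher, against 870 and 1262 of 12254. CCL5, a chemokine for T cells, stood at 111.7 and 95.7 in wild type and at 25.5 and 15.9 in knockout with STING. The separation was as wide with vector, at 130.9 and 109.9 against 17.3 and 11.9. The log2 difference of CCL5 was -2.30 ± 0.28 with STING (adjusted p = 0.0251) and -2.97 with vector (adjusted p = 0.0402). OASL, a member of the oligoadenylate synthetase family, stood at 26 and 22.3 against 4.11 and 2.19 with STING, and at 29.4 and 28.0 against 5.05 and 2.30 with vector.

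IFITM3, which blocks the entry of viruses at endosomes, stood at 81.2 and 72.6 against 15.0 and 7.15 with STING. Its log2 difference was -2.77 ± 0.31 (adjusted p = 0.0238), and -2.69 with vector. IFITM1, its plasma-membrane relative, stood at 129.6 and 136 against 25.4 and 41.1, a log2 difference of -2.0 ± 0.29 (adjusted p = 0.0293). These genes are close copies of each other, and the authors' counting could split fragments between them. IFIT2 and IFIT3, which bind foreign RNA, stood at 8.59 and 7.60 and at 7.88 and 8.25 in wild type with STING, and between 1 and 1.19 in the knockout STING libraries. IFIT1 stood at 12.9 and 10.6 against 3.42 and 3.46 (adjusted p = 0.0544). IFNB1, which encodes interferon beta, stood at 6.97 and 3.50 against 1.37 and 1.42 (adjusted p = 0.0669), and at 7.02 and 7.65 against 1 in both knockout libraries with vector. ISG15, a ubiquitin-like modifier, stood at 168 and 124 against 75.3 and 71.8 (adjusted p = 0.0730). The IFIT genes, IFNB1 and ISG15 were added after their values were seen.

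BST2, or tetherin, which holds budding virus at the cell surface, went the other way. It stood at 1.51 and 1 in wild type and at 11.8 and 24.6 in knockout with STING, and at 2.36 and 1 against 14.7 and 14.3 with vector. Its log2 difference of 3.02 ± 0.38 (adjusted p = 0.0293) was the largest among the 12 named genes that rose.

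The promoters of the interferon-stimulated members are shown because genes that moved in opposite directions share a motif there. The core of the interferon-stimulated response element, searched on both strands as GAAA, any 2 bases and GAAA again, occurred in 3.65% of the 27305 RefSeq promoters. It occurred in 18 of the 32 promoters found for the list. All 4 called members with a promoter entry held matches, 2 each, some of which overlap: IFITM3 (chr11:320878-320937, minus strand), IFITM1 (chr11:313975-314034, plus strand), IFIT3 (chr10:89327816-89327875, plus strand) and BST2 (chr19:17405726-17405785, minus strand), all on GRCh38.p14. CCL5, IFIT2 and OASL are named only. Each stretch surrounds the first match of its promoter, capitals mark whole matches, and a match is no proof of binding.
IFITM3: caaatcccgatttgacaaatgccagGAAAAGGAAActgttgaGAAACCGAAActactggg
IFITM1: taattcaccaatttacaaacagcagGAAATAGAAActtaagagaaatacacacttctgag
IFIT3: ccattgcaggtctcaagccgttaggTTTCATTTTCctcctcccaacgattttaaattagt
BST2: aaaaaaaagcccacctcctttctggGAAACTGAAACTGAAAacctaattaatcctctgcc

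NF-kB targets, the other branch that STING is known to drive, gave 0 calls by limma among 26 tested members. At an unadjusted p under 0.05 there were 5, against 17.4% of all tested genes. RELA, a subunit of NF-kB, stood at 45.3 and 47.1 against 23.2 and 30.8 (adjusted p = 0.0976). The median of the list was 0.03. As 13 of the 26 stayed under 5 FPKM in all 4 STING libraries, it cannot show whether the branch moved.

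Glycolytic and hypoxia-induced genes lay mostly above 0. Of 38 tested members 8 rose, against 1.21% of all tested genes, none fell and 30 did not pass. The median log2 difference was 0.80 with STING and 0.28 with vector, against 0.02 and -0.09 for all genes, and 34 of the 38 lay above 0 with STING. Under the scaling alternatives the median ran from 0.68 to 0.81 and the number that rose from 4 to 15. The 8 were the enzymes ENO2, GAPDH, ALDOA, ALDOC and PFKFB4 and the hypoxia-induced genes ANKRD37, NDRG1 and HILPDA. ENO2, the neuronal form of enolase, stood at 11.7 and 9.60 against 43.9 and 42.5 with STING, and at 12.2 and 11.3 against 34.8 and 34.1 with vector. Its log2 differences were 1.93 ± 0.19 (adjusted p = 0.0238) and 1.48.

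GAPDH, the glycolytic dehydrogenase often used as a reference gene, stood at 1940 and 1688 against 4694 and 4401 with STING, and at 1604 and 1570 against 3644 and 2907 with vector. ANKRD37 stood at 7.59 and 4.75 against 32.2 and 26.4, a log2 difference of 2.1 ± 0.29 (adjusted p = 0.0293). NDRG1, a stress-responsive gene, stood at 3.95 and 4.04 against 13.8 and 16 with STING and at 3.27 and 3.55 against 6.03 and 7.22 with vector. The knockout libraries were the higher ones for each of these genes with both plasmids. HILPDA, which marks lipid droplets, stood at 201 and 170 against 461 and 571. ALDOA stood at 386 and 379 against 773 and 1163, and ALDOC at 1 and 2.40 against 9.32 and 8.75. VEGFA, a classical hypoxia target, overlapped between genotypes at 9.70 and 8.28 against 10.4 and 6.94. HILPDA, ALDOA, ALDOC and VEGFA were added after their values were seen.

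The hypoxia response element core, ACGTG on either strand, occurred in 21.6% of the 27305 promoters, in 12 of 32 found for the list and in 5 of the 6 found for its risers. The stretches around the first match are shown for these 5, on GRCh38.p14. Those on the plus strand are ANKRD37 (chr4:185396654-185396708), ENO2 (chr12:6914437-6914491), GAPDH (chr12:6535158-6535212) and ALDOA (chr16:30064076-30064130), and ALDOC (chr17:28577106-28577145) is on the minus strand. Capitals mark matches, and CACGTG is a match on both strands. PFKFB4 held none in its window, and NDRG1 and HILPDA are named only.
ANKRD37: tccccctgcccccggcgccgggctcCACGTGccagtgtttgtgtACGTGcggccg
ENO2: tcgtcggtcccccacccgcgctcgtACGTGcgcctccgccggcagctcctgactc
GAPDH: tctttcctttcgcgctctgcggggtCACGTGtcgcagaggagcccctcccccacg
ALDOA: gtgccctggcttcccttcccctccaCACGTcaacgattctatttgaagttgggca
ALDOC: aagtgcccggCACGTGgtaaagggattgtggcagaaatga

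Cholesterol synthesis genes lay mostly above 0, but 1 of 32 passed, against 1.75% of all tested genes. The median was 0.64 with STING and 0.15 with vector, against 0.02 and -0.09 for all genes. With STING 31 of the 32 members lay above 0. IDI1, an isomerase early in isoprenoid synthesis, stood at 13.6 and 12.2 against 36.9 and 39.8 (log2 difference 1.5 ± 0.24, adjusted p = 0.0339). INSIG1, the sterol-responsive ER protein that retains SCAP, stood at 22.7 and 24.0 against 55.8 and 115 (adjusted p = 0.0663). SCD, a fatty acid desaturase, stood at 23.6 and 28.3 against 63.5 and 131 (adjusted p = 0.0671). For INSIG1 and SCD knockout STING library 2 stood well above library 1, so the spread within the group was large. IDI1 did not pass with equal sums, where 0 of the 32 did.

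**Figure D3:**
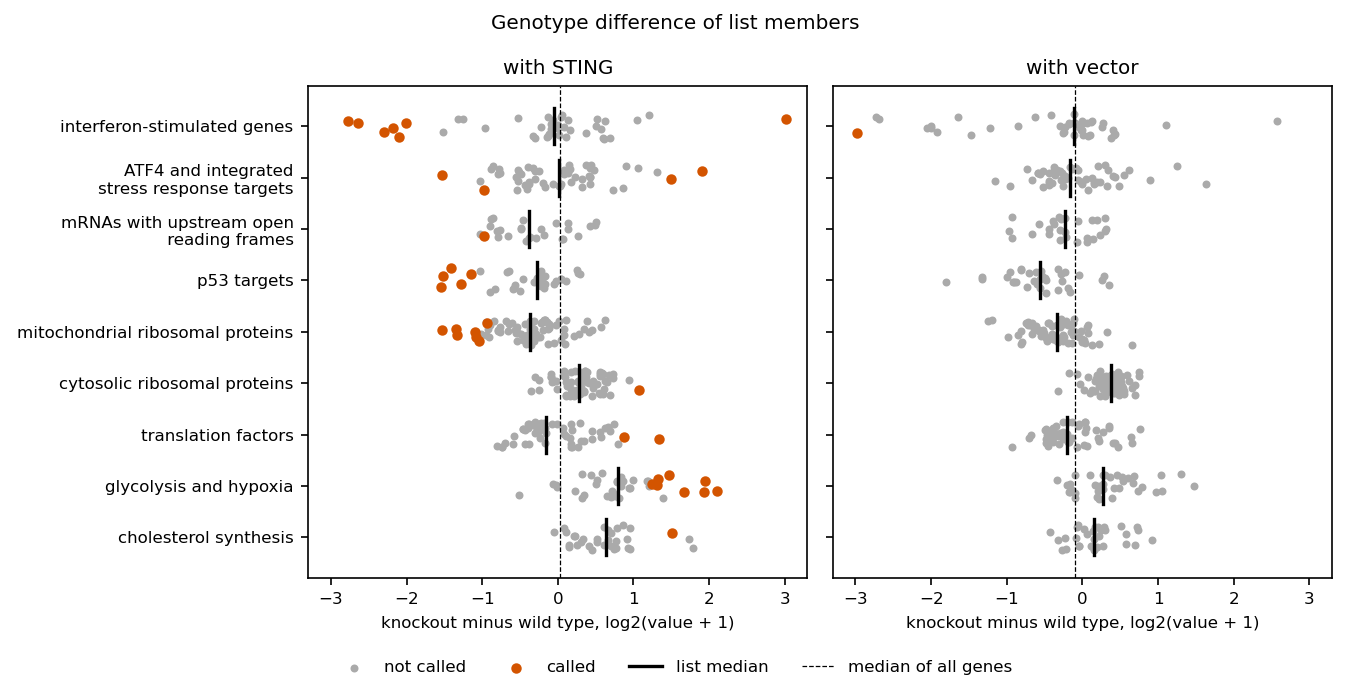
Genotype difference (log2(value + 1)) of each tested member of 9 gene lists, with STING on the left and with vector on the right; orange points passed the test in that comparison, vertical bars are list medians and the dashed line is the median of all tested genes. The glycolysis and hypoxia median lies at 0.80 with STING and 0.28 with vector, and that of p53 targets at -0.27 and -0.57.

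Targets of p53 lay mostly below 0. Of 33 tested, 5 fell with STING, against 0.547% of all tested genes, none rose and 28 did not pass. The median was -0.27 with STING and -0.57 with vector, against 0.02 and -0.09 for all genes. Under the scaling alternatives it ran from -0.42 to -0.29 with STING, and 2 to 7 members fell. CDKN1A, the cyclin-dependent kinase inhibitor p21, stood at 74.2 and 64.7 against 25.8 and 21.4 with STING and at 82.5 and 64.0 against 34.3 and 23.5 with vector. Its log2 difference was -1.52 ± 0.24 (adjusted p = 0.0339), and -1.32 with vector. RPS27L, a ribosomal protein-like p53 target, stood at 179 and 171 against 68.2 and 62.0 (-1.42 ± 0.16, adjusted p = 0.0238). TRIAP1, a p53-induced inhibitor of apoptosis, stood at 112 and 109 against 48.5 and 41.3. GADD45A, a DNA damage-inducible gene, stood at 35.1 and 34.1 against 13.4 and 16.9. EDA2R, a receptor of the TNF family, stood at 5.16 and 4.54 in wild type and at 1 in all 4 knockout libraries. In each of these 5 genes the knockout libraries were the lower ones with both plasmids. MDM2, the p53 ubiquitin ligase, overlapped with STING at 5.65 and 5.01 against 5.41 and 3.71; EDA2R and MDM2 were added after their values were seen.

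Genes of the mitochondrial ribosome fell in 7 of 75 tested members, against 0.547% of all tested genes, and none rose. The median was -0.36 with STING and -0.33 with vector, against 0.02 and -0.09 for all genes. With equal sums the median was -0.45 and 0 of the 75 passed. MRPL18 stood at 295 and 244 against 101 and 112 with STING and at 444 and 426 against 164 and 205 with vector (-1.33 ± 0.19 with STING, adjusted p = 0.0293). MRPS18C stood at 141 and 145 against 46.5 and 66.4, and MRPL1 at 30.7 and 31.5 against 9.04 and 11.2. MRPL22 stood at 79.6 and 66.5 against 34.3 and 33.0; the other 3 that fell were MRPL27, MRPL32 and MRPL42. MTIF3, a mitochondrial initiation factor outside that list, was lower too, at 64.0 and 57.8 against 21.7 and 23.0 (adjusted p = 0.0361), and was named after its values were seen. Of 76 nuclear genes of oxidative phosphorylation 1 fell, against 0.547% of all tested genes. It was the complex I subunit NDUFA5, at 48.6 and 44.7 against 19.7 and 19 (adjusted p = 0.0439).

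Calls among cytosolic ribosomal proteins and translation factors were all higher, where 1.21% of all tested genes rose and 0.547% fell. RPL3, of the large ribosomal subunit, was the one of 78 ribosomal protein genes that passed, at 1442 and 1368 against 2872 and 3061 (1.08 ± 0.16, adjusted p = 0.0318). The median of the 78 was 0.28 with STING and 0.38 with vector, against 0.02 and -0.09 for all genes. With STING 67 of the 78 lay above 0. EEF2 and EEF1D, both of elongation, rose among 53 translation factors, while the median of that list was -0.15. EEF2, which moves the ribosome along the mRNA, stood at 199 and 224 against 474 and 604 (1.34 ± 0.20, adjusted p = 0.0310). EEF1D stood at 227 and 210 against 416 and 386. None of these 3 genes passed with equal sums.

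The other risers among the 12 named genes came from several functional classes. KRT8, a keratin of simple epithelia, stood at 11.8 and 13.7 against 67.9 and 68.3 with STING and at 15.6 and 18.6 against 54.7 and 65.2 with vector. It passed in both comparisons, with log2 differences of 2.33 ± 0.19 (adjusted p = 0.0228) and 1.75 (adjusted p = 0.0444). LGALS3BP, a secreted galectin-binding protein, stood at 4.04 and 3.97 against 22.6 and 36.2. PROCR, the endothelial protein C receptor, stood at 12.5 and 18.5 against 55.2 and 86.4. OSTN, a secreted peptide also called musclin, stood at 4.20 and 1.25 against 17.6 and 33.5, and TMEM59L at 5.48 and 9.62 against 28.9 and 42.6. The small GTPase RAB26, the protease KLK8 and the protease inhibitor SPINK2 were also among the 12, with log2 differences of 2.32, 2.18 and 1.96. For all of these genes the vector libraries lay apart in the same direction.

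MAGEA3, a cancer-testis antigen with near-identical copies, was listed at 1 in all 4 wild-type libraries and at 7.16 and 15.1 in knockout with STING. TIMP1, an inhibitor of matrix metalloproteinases, stood at 321 and 292 against 658 and 957 (1.37 ± 0.21, adjusted p = 0.0320). It was the one of 33 matrix and fibrosis genes that passed, against 1.75% of all tested genes. The median of that list was 0.42 with STING and 0.08 with vector, against 0.02 and -0.09 for all genes. With STING 28 of its 33 members lay above 0. The class II genes HLA-DPA1 and HLA-DRB1, which are close to other HLA genes in sequence, were listed at 1 in both wild-type STING libraries and stood between 5.30 and 9.18 in the knockout STING libraries. CXCR4, a chemokine receptor, stood at 7.92 and 6.74 against 22.5 and 32.2. The HLA genes and CXCR4 were named after their values were seen.

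**Figure D4:**
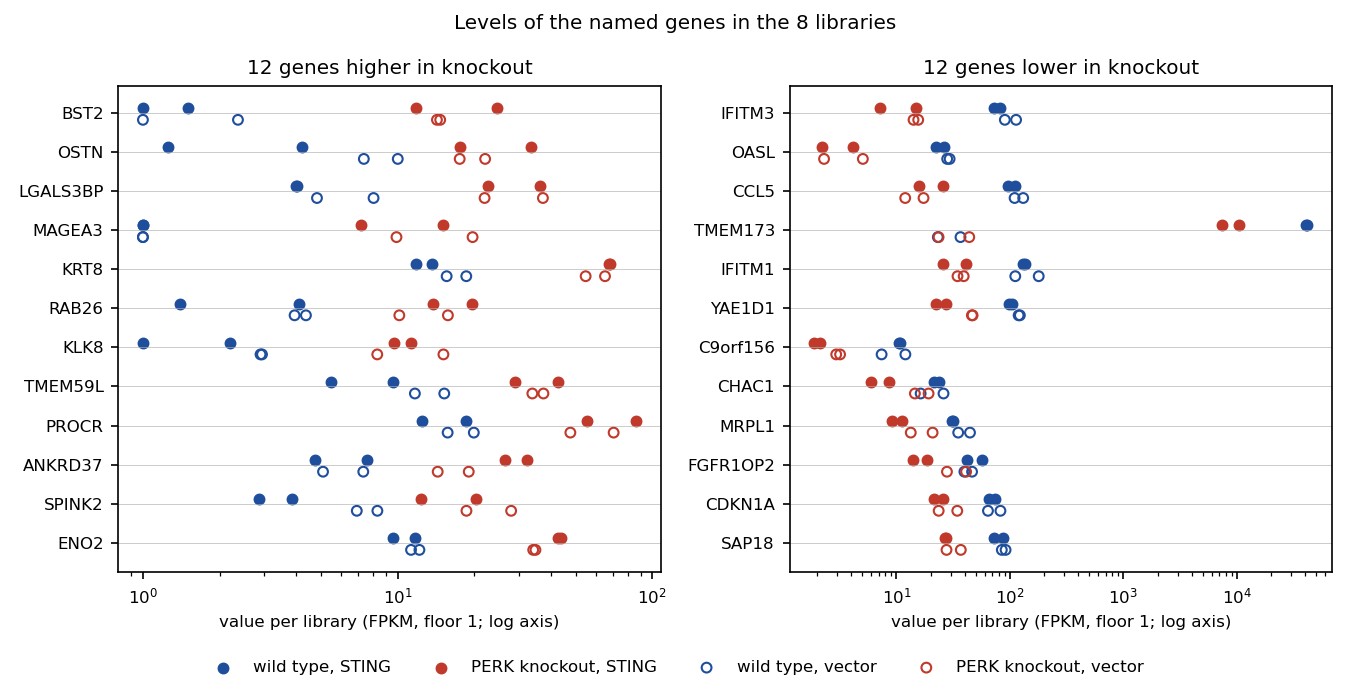
FPKM of the 12 named genes higher (left) and the 12 lower (right) in knockout, on log axes with the table's floor at 1; each point is 1 library (filled with STING, open with vector, blue wild type, red knockout). The filled red and blue points do not overlap in any row; open points overlap only for TMEM173, CHAC1 and FGFR1OP2.

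Other falls included YAE1D1, at 98.0 and 105 against 22.2 and 27.6 with STING (-1.99 ± 0.17, adjusted p = 0.0228), and C9orf156, at 10.6 in both wild-type libraries against 2.11 and 1.88. SAP18, a subunit of the Sin3 histone deacetylase complex, stood at 87.2 and 71.7 against 27.4 and 27.0. FGFR1OP2 stood at 56.4 and 41.8 against 18.8 and 14.1 with STING, and its vector libraries overlapped. Developmental regulators passed in both directions. HOXA7 fell, at 25.7 and 17.6 against 6.01 and 8.82. It was the one of 36 HOX genes that passed, against 1.75% of all tested genes. SIX2, a factor of nephron progenitors, fell as well, at 61.8 and 56.5 against 23.7 and 25.2. ATOH1 and MIXL1 rose with STING, by the smaller log2 differences of 0.80 and 0.48, and their difference with vector was 0. CYR61, a YAP-responsive matricellular gene, fell, at 11.1 and 9.60 against 3.33 and 4.47. It was the one of 20 YAP and TEAD targets that passed, against 1.75% of all tested genes. PRR4 had the lowest log2 difference of all tested genes, at 18.9 in both wild-type libraries against 1 and 1.08, and did not pass (adjusted p = 0.0670). It was named after its values were seen, and its knockout vector libraries stood apart from each other at 11 and 1.

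Of the lists without a call by limma, DNA replication had 4 of 46 members at an unadjusted p under 0.05, mitosis 5 of 42 and the proteasome 5 of 44. Autophagy and lysosome genes had 9 of 58, cytosolic heat shock proteins 5 of 36 and NRF2 and ferritin genes 4 of 33. Survival genes had 5 of 21 and pro-apoptotic genes 5 of 30, against 17.4% of all tested genes. Of 49 replication-dependent histone genes 1 fell, HIST1H2BK, at 243 and 224 against 124 and 134, and histone genes are close copies of each other. Among 40 immediate early genes GADD45A and ARC fell. For these lists and the histones, the share of all tested genes that fell was 0.547%. With equal sums none passed in the immediate early, YAP and TEAD, HOX or matrix and fibrosis lists. The same held for the ER chaperone and oxidative phosphorylation lists.

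Whether a genotype difference was larger with STING than with vector was tested as the difference of the 2 differences. It gave 0 calls (0%; lowest adjusted p = 0.966) and 474 genes at an unadjusted p under 0.05 (3.87%). Among genes called with STING, TMEM173 had a difference of differences of -2.37 (limma unadjusted p = 0.00133). DDIT3 had -0.92 (limma unadjusted p = 0.00567, adjusted p = 0.966), FGFR1OP2 -1.19 and TMEM126B, which assembles complex I, -0.77. On the other side PIGQ, of GPI anchor synthesis, had 1.14, the transcription factor USF1 1.13, DERL3 0.82 and ZDHHC24, a palmitoyltransferase family member, 0.82. PIGQ stood at 9.37 and 8.97 against 23.4 and 22.3 with STING, and overlapped with vector at 17.3 and 16.2 against 15.2 and 21.2. TMEM126B stood at 133 and 128 against 66.3 and 72.3 with STING and at 120 and 121 against 99.6 and 121 with vector. None of these adjusted p-values passed.

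A pair of properties of the transcripts moved with the genotype difference. The median GC content was 58.1% for the called higher genes and 47.2% for the called lower genes, against 49.5% for all tested genes. Genes averaging 5 FPKM or more were put into 5 equal classes by GC content. Their median log2 difference with STING went from -0.19 in the lowest class to 0.20 in the highest, and with vector from -0.26 to -0.02. The 2 knockout STING libraries differed from each other in the same way, from -0.36 in the lowest class to -0.02 in the highest. For the wild-type STING libraries these values were -0.03 and 0.07. After centring within bins of GC content 472 genes passed, 190 higher and 282 lower, and all 213 of the called genes with a GC value kept their direction. The part of GC content in single genes was not tested.

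The second property was the chromosome of the gene, from RefSeq. Chromosome 13 had the lowest and chromosome 21 the highest median difference of 23 chromosomes, with STING and with vector alike, and both were singled out after the values were seen. The 70 such genes of chromosome 13 had a median of -0.46 with STING and -0.61 with vector. The other 21 chromosomes lay between -0.14 and 0.15 with STING. Of those 70, 64.3% had lower knockout libraries without overlap with STING, against 27.9% of all such genes. SAP18, MTIF3, SKA3, RNASEH2B and WBP4 were the called ones. The 64 genes of chromosome 21 had a median of 0.36 with STING and 0.13 with vector, and none was called. Set against the median of their own GC class, the medians were -0.38 and -0.37 for chromosome 13 and 0.34 and 0.30 for chromosome 21.

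**Figure D5:**
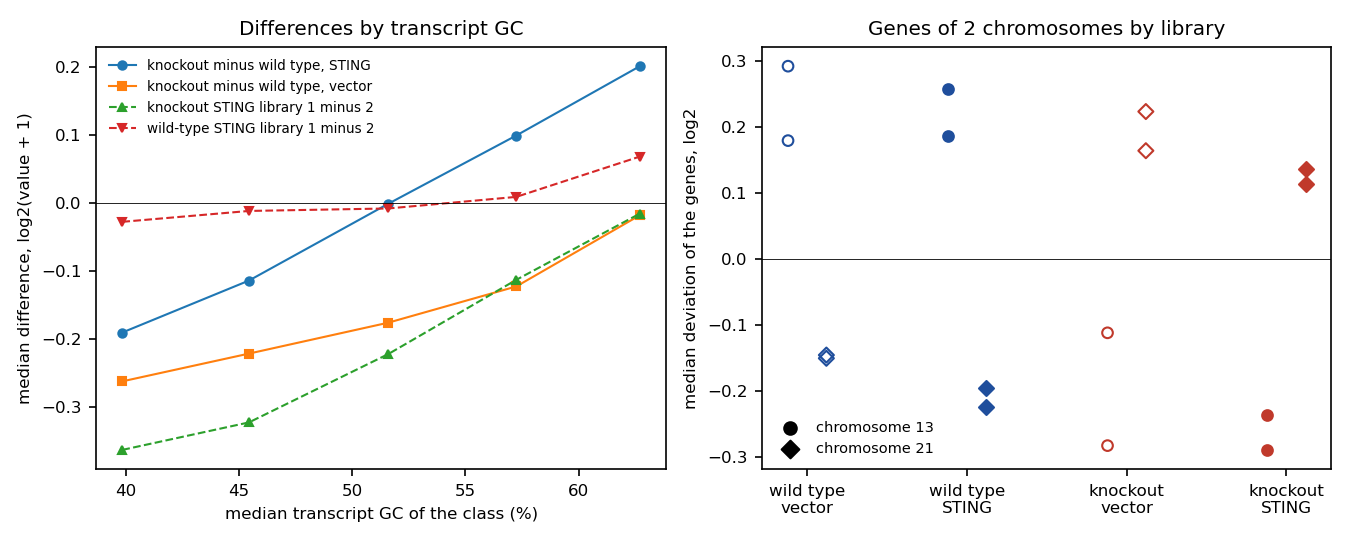
Left, median difference in log2(value + 1) by class of transcript GC content, lowest to highest, for knockout minus wild type and for library 1 minus library 2 within the STING groups. Right, median deviation of the genes of chromosomes 13 (circles) and 21 (diamonds) in each library from their mean over libraries, relative to all genes; the wild-type libraries lie above 0 for chromosome 13 and below 0 for chromosome 21, and the knockout libraries the reverse.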

How the data were processed

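RNA of the ribosomal fraction was copied by Smart-seq2 with poly(T) primers, per the labels' protocols, and measured in 8 libraries of 4 groups. Per the submitters' processing notes, the authors used TopHat2 2.1.1 and Cufflinks 2.2.1 on hg19. The deposited table names no unit. It was read as FPKM made by the authors, with values under 1 set to 1, from its Cufflinks-style header and its values. Which annotation and filters were used is not stated in the labels. Values understate changes that end at the floor, and the share taken by TMEM173 lowers other values in its libraries.

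Groups and replicate numbers came from sample titles. Replicate libraries correlated across genes with r from 0.976 to 0.991 and shared no identical value above the floor. limma 3.58.1 in R 4.3.3 was fitted to log2(value + 1) of the 8 libraries, with group means, intensity trend and robust eBayes, for the 12254 genes that varied and averaged 1 or more. Tests were two-sided, adjusted by Benjamini-Hochberg over all genes, with 0.05 as the threshold. Errors are limma standard errors on that scale, which understates changes of low genes. The script was tested on simulated data, where 4 unchanged genes passed.

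The members, gene lists and tests were chosen with earlier results of these data known. The named genes were the 12 with the largest differences in each direction among called genes without overlap, with a mean of at least 10 in the higher group and no small RNAs. Up to 4 members of each list with the lowest p and a mean of at least 5 in the STING libraries were added, and 4 genes in each direction for the difference of differences. Further genes are marked as named after their values were seen.

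Deviations of same-numbered libraries from their group means correlated positively for every pair of groups, from 0.0418 to 0.528. The labels do not say what a replicate number shares, so the main fit had no term for it. Alternatives changed the pseudocount, filter, scaling, moderation, libraries and GC correction. Promoters and chromosomes are from RefSeq, and GC content from GENCODE transcripts matched by symbol for 99.1% of the tested genes.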

Additional observations from a re-analysis of the deposited data

Results flagged for a closer look

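A pair of named genes had knockout libraries apart from wild type in opposite directions with STING and with vector. NFKBIA, the NF-kB inhibitor, stood at 127 and 126 in wild type against 106 and 108 in knockout with STING, and at 72.9 and 81.4 against 97.9 and 92.7 with vector. Its log2 difference was -0.24 with STING and 0.30 with vector, and the difference of these had an unadjusted p = 0.0400 (limma adjusted p = 0.966). MAFF, a small Maf transcription factor, stood at 6.72 and 6.98 against 3.88 and 3.73 with STING, and at 1.96 and 2.18 against 2.87 and 2.49 with vector. Its log2 difference was -0.71 with STING and 0.26 with vector, with an unadjusted p = 0.00747 for their difference (limma adjusted p = 0.966). Neither passed. Over all tested genes 344 lay apart in opposite directions and 2465 in the same direction.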

How the results depend on the processing

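With 2 libraries per group and no counts, precision rests on the spread pooled over groups, and the number of calls moved widely. Against 215 genes with STING, 356 passed with a mean of at least 5, 449 with median-of-ratios scaling, 468 after quantile normalization, 40 with equal sums without TMEM173, 472 after GC correction (chosen after seeing the data) and 0 with the 4 STING libraries alone. With the replicate block 851 passed (531 higher, 320 lower). Same-numbered libraries deviated together in part, but the labels do not say what they share. This count is therefore a hint from the data only. Leaving out 1 library gave 0 to 128. Against 6 genes with vector, 17 passed with pseudocount 0, 32 with a mean of at least 5, 53 with median-of-ratios scaling, 24 after quantile normalization, 57 after GC correction, 105 with the replicate block, 0 without trend and robust estimation, 0 with the 4 vector libraries alone and 0 to 3 without 1 library. The difference of differences gave 0 in all settings, including the replicate block (962 at an unadjusted p under 0.05). The TMEM173 ratio ran from 3.92 to 5.62 without 1 STING library. Of 2209 alternative values of 130 named genes, 1634 kept their direction and side of the threshold, 452 lost the call, 118 gained it and 5 changed sign, none of them of a called gene. Without 1 library the log2 difference ran from -1.38 to 0.16 for FSTL1, from -0.57 to 0.92 for LYZ, from -0.010 to 0.60 for TEAD4 and from -0.018 to 0.34 for RHOB, which stood at -0.061 after GC correction. The median difference of all genes with vector moved from -0.09 to 0.05 with median-of-ratios scaling. Scaling to spike-ins was not run, because the table's ERCC symbols are excision-repair genes. The cause of these shifts was not tested.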
